A study of Homo sapiens with 6 samples.

Results

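The aminoacyl-tRNA synthetases are the enzymes that attach each amino acid to its transfer RNA. They were taken as a list of 36 gene symbols, written with the older names that the count tables use, such as AARS for the gene now called AARS1. All 36 were among the 19934 symbols of the tables, and the rule used no measured value. The list holds 18 genes for cytosolic enzymes, 16 for mitochondrial enzymes, and GARS and KARS, which each code for both forms.

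H1299 (NCI-H1299) is an established line of human lung carcinoma cells that lacks p53, and it was labelled as wild type in its genotype field. Cells were transfected over 4 days, using a Lipofectamine reagent, with a control siRNA (si-Ctr), with siRNA against ZBTB11 (si-ZBTB11), a transcription factor with zinc fingers and a BTB domain, or with siRNA against SET (si-SET), a nuclear histone chaperone and inhibitor of the phosphatase PP2A. Each group has 2 biological replicates, which makes 6 RNA-seq libraries, and no library is labelled as receiving both siRNAs. The paper describes more than 1 oligo against ZBTB11, and the labels do not say which one each si-ZBTB11 library received. The knockdowns are transient and act on a whole culture of 1 cell line.

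Charging of a transfer RNA uses ATP and sets which amino acid each codon adds, so the fidelity of translation rests on these enzymes. Cytosolic and mitochondrial translation use separate transfer RNAs, and in human cells most amino acids have 1 nuclear gene for each compartment. A part of the cytosolic enzymes is held in the multisynthetase complex, assembled on the scaffold proteins AIMP1, AIMP2 and EEF1E1. Many genes for cytosolic synthetases are known targets of ATF4, the transcription factor of the amino acid and integrated stress response, while most mitochondrial synthetase genes are not known for this.

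The promoters are shown first because 1 of the knockdowns concerns a DNA-binding factor and because ATF4 is a known regulator of many genes for cytosolic synthetases. RefSeq promoter windows on GRCh38.p14, each running from 250 bases before to 50 bases after the first listed start site of the gene, were found for 30 of the 36 members. The other 6, among them LARS, VARS, YARS, AARS2 and VARS2, had no entry. For 9 of the 30, RefSeq lists several start sites. Both strands were searched for TGATGNAA, the core of the ATF4 response element, and for CCGGAAG and CAGGAAG, the forms of the motif that the study gives for ZBTB11. No match to one of these motifs shares bases with a match to another. TGATGNAA occurred in 6 of the 14 cytosolic windows, 1 of the 14 mitochondrial windows and 0 of the 2 windows of GARS and KARS. In all 27305 promoters of this length its share was 3.67%, and in those of protein-coding genes it was 2.53%. The 7 matches are printed below in the direction of each gene and with the match in capitals, where TTGCATCA is the same element read on the other strand. Not more than 30 transcribed bases are included.

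AARS (chr16:70289661-70289718, minus strand): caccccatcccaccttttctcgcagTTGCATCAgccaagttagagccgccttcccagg

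CARS (chr11:3057394-3057450, minus strand): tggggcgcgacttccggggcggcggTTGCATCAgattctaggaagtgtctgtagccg

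IARS (chr9:92293678-92293735, minus strand): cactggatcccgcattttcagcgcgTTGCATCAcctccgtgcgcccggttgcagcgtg

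MARS (chr12:57488039-57488096, plus strand): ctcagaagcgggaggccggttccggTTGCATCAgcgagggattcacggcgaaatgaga

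NARS (chr18:57621807-57621847, minus strand): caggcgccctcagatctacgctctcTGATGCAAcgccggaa

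TARS (chr5:33440942-33440994, plus strand): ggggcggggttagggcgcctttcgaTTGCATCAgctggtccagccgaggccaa

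YARS2 (chr12:32756062-32756119, minus strand): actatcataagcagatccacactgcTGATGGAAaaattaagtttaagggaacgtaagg

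In the 6 cytosolic windows the match reads TTGCATCA or TGATGCAA, and in YARS2 it reads TGATGGAA. Counted from 0 at the start site, the match begins at −13 in IARS, −4 in MARS, −2 in CARS, 2 in TARS and 14 in NARS, and lies farther out at −187 in AARS and −197 in YARS2. CCGGAAG occurred in 6 of 14 cytosolic windows, in 6 of 14 mitochondrial windows and in those of GARS and KARS, against 10.7% of all promoters and 14.2% of the promoters of protein-coding genes. CAGGAAG occurred in 3 of the 30 windows (HARS, SARS and WARS2), against 12.8% of all promoters. A match describes letters in a window and is not a binding site. For 6 of the 14 members with CCGGAAG, all of them called on ZBTB11 knockdown, the match nearest to the start site is shown in capitals. CTTCCGG is the motif on the other strand. SARS, also called on ZBTB11 knockdown, holds CCGGAAG too, and its window is not printed. The other carriers, CARS, NARS, RARS, EARS2, HARS2, PARS2 and SARS2, were not called on ZBTB11 knockdown and have no window of their own printed. HARS and HARS2 are read outward from overlapping start regions, so the printed window of HARS is shared by both genes.

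KARS (chr16:75647689-75647745, minus strand): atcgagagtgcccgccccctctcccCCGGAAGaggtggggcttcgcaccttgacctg

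GARS (chr7:30594722-30594764, plus strand): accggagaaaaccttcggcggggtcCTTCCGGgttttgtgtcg

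HARS (chr5:140691348-140691404, minus strand): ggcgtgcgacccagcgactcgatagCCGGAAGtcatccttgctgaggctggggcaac

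WARS (chr14:100376321-100376377, minus strand): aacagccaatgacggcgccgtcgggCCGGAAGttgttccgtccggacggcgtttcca

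TARS2 (chr1:150487220-150487276, plus strand): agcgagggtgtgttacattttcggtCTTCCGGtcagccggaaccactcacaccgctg

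MARS2 (chr2:197705292-197705348, plus strand): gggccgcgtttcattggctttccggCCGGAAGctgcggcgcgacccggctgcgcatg

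The libraries held 16653115 to 17694522 counts, and the members together took 0.484% to 0.529% of them. A count of 3, taken as the floor of detection, equals 0.170 to 0.180 CPM before normalization, where CPM are counts scaled to a common library total and, elsewhere in the text, also normalized by TMM, the method of edgeR for differences in composition, and no member fell near it. The knockdowns were visible in their targets. ZBTB11 had 925 and 1075 counts in si-Ctr, 548 and 544 in si-ZBTB11, and 846 and 708 in si-SET, so that 55.0% of the control level in normalized CPM remained in si-ZBTB11 and 76.2% in si-SET (edgeR adjusted p = 4.45e-17 and 2.12e-05). SET had 11656 and 11007 counts in si-Ctr, 1032 and 1031 in si-SET, and 11441 and 11244 in si-ZBTB11. Of the lung lineage markers, NAPSA, SFTPB and SFTPC stayed at or below 0.564 CPM and were close to absent. NKX2-1 was low but above the floor in every library, at 2.15 to 3.57 CPM. Immune and endothelial markers summed to at most 0.718 CPM, with CD3E at 0, and the fibroblast markers to at most 5.81 CPM, with LUM at 0. The summed keratin and adhesion markers lay at 927 to 936 CPM in si-Ctr, 760 to 782 in si-ZBTB11 and 770 to 820 in si-SET. KRT8 and KRT18 made up nearly all of this sum, while KRT19, EPCAM and CDH1 stayed at or below 0.677 CPM. The summed mesenchymal markers lay at 1605 to 1621 CPM in si-Ctr, 1745 to 1749 in si-ZBTB11 and 1569 to 1614 in si-SET. VIM, at 1430 to 1614 CPM over the libraries, made up most of that sum. The part of the shifts in these sums in the results below was not tested.

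In the si-Ctr libraries the cytosolic enzymes had the higher mRNA levels. On a scale of CPM per kilobase of the Ensembl canonical transcript, their median was 78.8 (range 7.93 to 108, n = 18 genes), and the median of the mitochondrial enzymes was 8.33 (range 2.81 to 42.6, n = 16 genes). GARS stood highest at 125 ± 0.949 (SD, n = 2), followed by WARS at 108 ± 6.29, TARS at 104 ± 1.55, MARS at 103 ± 3.17 and KARS at 103 ± 2.75. The levels from WARS to KARS lie within the SD of WARS of each other. The sets overlapped in level: IARS2, the mitochondrial isoleucyl enzyme, at 42.6 ± 0.706, stood above cytosolic EPRS (39.9 ± 1.74), CARS (21.6 ± 0.0240) and FARSB, the beta subunit of cytosolic phenylalanyl synthetase, at 7.93 ± 0.0667. FARSA, the alpha subunit of the same enzyme, had 85.6 ± 4.33 on this scale. The canonical transcript of FARSB has 6761 bases, the longest among the members, and its level per kilobase depends on that choice. RARS2 (26.9 ± 1.24), YARS2 (23.8 ± 0.519) and VARS2 (22.4 ± 0.202) followed IARS2 among the mitochondrial genes. SARS2 was lowest at 2.81 ± 0.239, with 81 to 103 counts per library, and 48.2% of its exon bases are also exon of an annotated readthrough gene, so its counts are uncertain. VARS2 shares 62.1% of its 31-base words with other annotated genes and YARS2 shares 21.3%, and the treatment of reads that match several genes is not given in the sources used here.

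The first comparison asked which synthetase mRNAs differ after ZBTB11 knockdown. All 36 members passed edgeR's filter on low counts and were tested. In the si-ZBTB11 libraries 11 members were higher and 4 were lower than in si-Ctr at an adjusted p under 0.05, by the quasi-likelihood test of edgeR with the adjustment of Benjamini and Hochberg over 13534 genes tested. Below, "passed" and "called" refer to this threshold, and log2 change is the log2 of the fold change. The called members were 41.7% of the 36, where 20.5% of all genes tested were called, 9.94% higher and 10.5% lower. By set, of the 18 cytosolic genes 8 were higher and 1 was lower, of the 16 mitochondrial genes 1 was higher and 3 were lower, and GARS and KARS were both higher. The median log2 change was 0.12 for the cytosolic set, −0.03 for the mitochondrial set and 0.00161 for all genes tested. Without si-Ctr replicate 2 the mitochondrial median was −0.07. No p was computed for the difference between the sets. The changes were small, and the largest in size was 1.43-fold, so at the paper's criteria of an unadjusted p under 0.05 with a log2 change of more than 1 in either direction, which 1.57% of all genes met, 0 members were called. Depth differs between the sets, with a median over genes of 3796 counts per library for the cytosolic set and 499 for the mitochondrial set, against 536 for all genes tested. Standard errors (SE) follow it, with a median of 0.04 on the log2 scale for cytosolic genes and 0.09 for mitochondrial ones, so a change of the same size passed the test less easily in the mitochondrial set. The 36 members together had a median of 2446 counts, so the shares called compare genes of unlike depth. The part of depth in the difference from all genes was not tested.

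**Figure D1:**
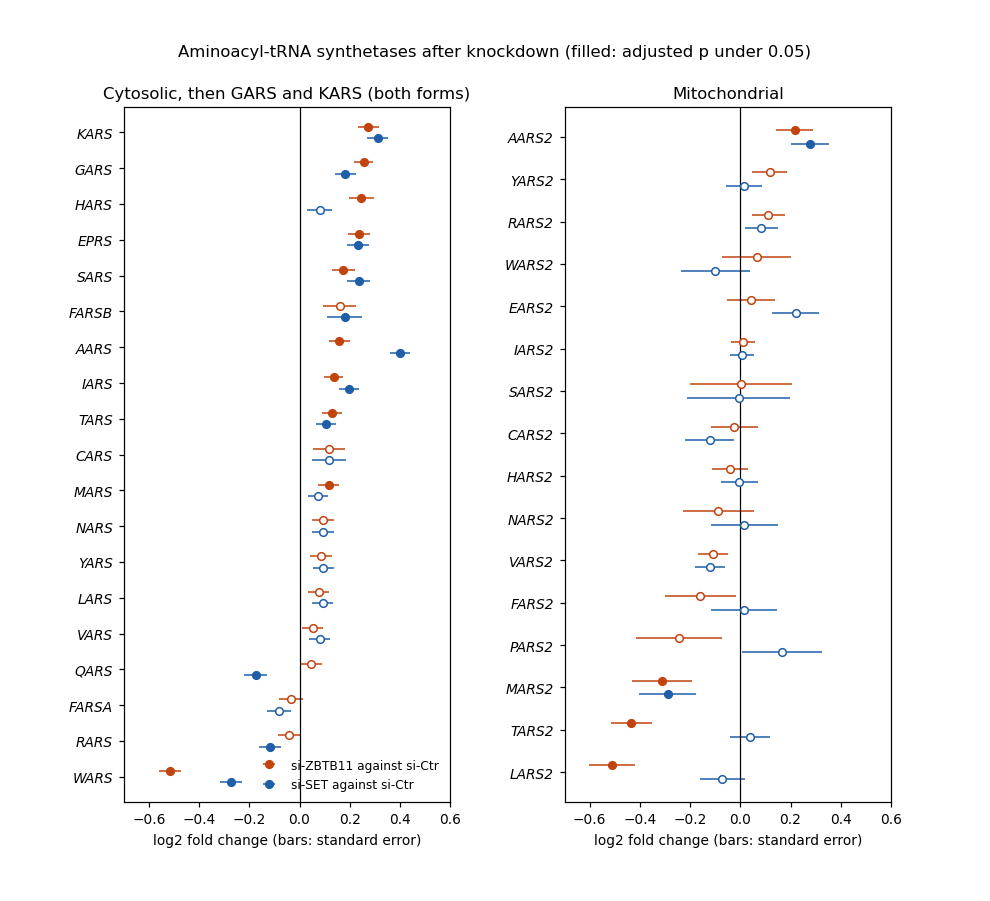
Log2 fold change of the members reported here against si-Ctr, on ZBTB11 knockdown (orange) and SET knockdown (blue); points are edgeR estimates, bars their standard errors, and filled points have an adjusted p under 0.05. The left panel holds the cytosolic genes with GARS and KARS at the top, the right panel the 16 mitochondrial genes; most cytosolic points lie right of 0, with WARS far to the left at −0.51 and −0.27, while LARS2 and TARS2 lie to the left in orange only.

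The lysyl and glycyl enzymes had the largest estimated rises on ZBTB11 knockdown, and each of these genes supplies both compartments. HARS and EPRS, with log2 changes of 0.25 and 0.24, lay within the SE of both, so this order is not settled. KARS, on chromosome 16 of hg38 from 75627474 to 75648643 (minus strand), had 3641 and 3352 counts in si-Ctr and 4333 and 4064 in si-ZBTB11. In normalized CPM this was 204 ± 5.47 (SD, n = 2) and 247 ± 5.92, a log2 change of 0.27 (SE 0.04, adjusted p = 2.09e-07). GARS, on chromosome 7 from 30580533 to 30634033 (plus strand), had 5350 and 5061 counts in si-Ctr and 6217 and 6118 in si-ZBTB11, which gave 304 ± 2.31 and 363 ± 3.64 CPM. Its log2 change was 0.25 (SE 0.04, edgeR adjusted p = 1.09e-07). For both genes the knockdown libraries lay above both controls. Their summed level was 508 ± 7.79 CPM in si-Ctr and 611 ± 2.28 in si-ZBTB11, 120% of control.

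Among the cytosolic genes, HARS, the histidyl enzyme, had the largest estimated rise, ahead of EPRS by less than its SE. HARS had 2202 and 2050 counts in si-Ctr and 2599 and 2408 in si-ZBTB11, a log2 change of 0.25 (SE 0.05, edgeR adjusted p = 4.83e-05), with no overlap of the groups. HARS2, its mitochondrial partner, starts 107 bases inside HARS on the other strand, and it had 830 and 801 counts against 779 and 794, a log2 change of −0.04 (adjusted p = 0.752). HARS also shares exon bases with WDR55 and DND1 in the annotation. EPRS, which joins the glutamyl and prolyl enzymes in 1 protein and belongs to the multisynthetase complex, rose from 3500 and 3147 counts to 3944 and 3824 (log2 change 0.24, SE 0.04, edgeR adjusted p = 1.12e-05). The si-ZBTB11 libraries of EPRS lay above both si-Ctr libraries in CPM.

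SARS, AARS, IARS, TARS and MARS rose by less, with log2 changes of 0.17, 0.16, 0.14, 0.13 and 0.12 in this order. AARS, the alanyl enzyme, had 4472 and 4518 counts in si-Ctr and 4911 and 5058 in si-ZBTB11. These calls depended on single libraries. The adjusted p for AARS was 0.121 without si-Ctr replicate 1 and 0.0842 without si-ZBTB11 replicate 2. For SARS it was 0.0532 without si-Ctr replicate 1, and for IARS it was 0.127 without si-Ctr replicate 2 and 0.0542 without si-ZBTB11 replicate 2. For TARS it was 0.162 without si-Ctr replicate 2 and 0.0816 without si-ZBTB11 replicate 1. MARS, the methionyl enzyme, passed without si-Ctr replicate 2 only, and the adjusted p was 0.0743 to 0.316 without any other library. MARS overlaps DDIT3 on the other strand by 355 exon bases, and the strand setting of the counting is not given in the sources used here. DDIT3 had 670 and 704 counts in si-Ctr and 927 and 824 in si-ZBTB11, and reads from the shared bases cannot be told apart.

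WARS, the tryptophanyl enzyme, which is also known as a gene that interferon gamma induces, was the cytosolic member that fell. It lies on chromosome 14 from 100333790 to 100376805 (minus strand) and had 4797 and 4980 counts in si-Ctr and 3324 and 3476 in si-ZBTB11. Its level fell from 286 ± 16.6 to 200 ± 10.6 CPM (SD, n = 2 each), which is 70.1% of control and a log2 change of −0.51 (SE 0.04, edgeR adjusted p = 1.86e-18). The groups did not overlap. Its mitochondrial partner WARS2 had 246 and 187 counts in si-Ctr and 218 and 231 in si-ZBTB11, which overlap (log2 change 0.06, SE 0.14, adjusted p = 0.799). RARS and FARSA, the other cytosolic genes with a negative log2 change (−0.04 and −0.03), did not pass the test. The summed level of the cytosolic set was 3682 ± 32.1 CPM in si-Ctr and 3878 ± 39.6 in si-ZBTB11, 105% of control.

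Of the mitochondrial genes, LARS2, the leucyl enzyme, and TARS2, the threonyl enzyme, fell most. LARS2, on chromosome 3 from 45388561 to 45554726 (plus strand), had 591 and 580 counts in si-Ctr and 417 and 400 in si-ZBTB11. Its level was 34.2 ± 0.628 CPM in si-Ctr and 24.1 ± 0.194 in si-ZBTB11, a log2 change of −0.51 (SE 0.09, edgeR adjusted p = 5.21e-06). TARS2, on chromosome 1 from 150487414 to 150507602 (plus strand), fell from 776 and 723 counts to 598 and 504, or from 43.8 ± 0.804 to 32.4 ± 3.22 CPM (log2 change −0.43, SE 0.08, edgeR adjusted p = 1.30e-05). For both, the si-ZBTB11 libraries lay below both controls, while cytosolic LARS (log2 change 0.08, adjusted p = 0.190) did not pass and TARS rose. MARS2, the mitochondrial methionyl enzyme, had 326 and 335 counts in si-Ctr and 268 and 261 in si-ZBTB11. Its log2 change of −0.31 (SE 0.12, adjusted p = 0.0460) was just past the threshold, and without any 1 library the adjusted p was 0.0752 to 0.277. AARS2, the mitochondrial alanyl enzyme, was the mitochondrial member that rose, from 720 and 780 counts to 916 and 818 (log2 change 0.22, SE 0.07, edgeR adjusted p = 0.0236). The adjusted p of AARS2 was 0.381 without si-Ctr replicate 1 and 0.288 without si-ZBTB11 replicate 1.

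The other 12 mitochondrial genes did not pass on ZBTB11 knockdown, with log2 changes from −0.24 for PARS2 to 0.12 for YARS2. PARS2, the prolyl enzyme, had 151 and 132 counts in si-Ctr and 115 and 122 in si-ZBTB11 (SE 0.17, adjusted p = 0.343). IARS2, the mitochondrial gene with the most counts, had 2604 and 2549 against 2610 and 2551 (log2 change 0.01, SE 0.05). The summed level of the set was 635 ± 9.61 CPM in si-Ctr and 618 ± 0.740 in si-ZBTB11, 97.4% of control. The Wald test of DESeq2 did not call MARS, TARS, AARS2 and MARS2, with adjusted p-values of 0.0993, 0.0527, 0.230 and 0.269.

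The second comparison asked the same of SET knockdown and used the same si-Ctr libraries, so that a deviating control library enters both comparisons. In the si-SET libraries 10 members were higher and 4 were lower among the 13599 genes tested, and all 36 members were tested. The share of members called was 38.9%, where 27.0% of all genes were called, 13.1% higher and 13.9% lower. As above, the members lay at a higher depth than genes at large, and its part in this contrast was not tested. Of the 18 cytosolic genes 7 were higher and 3 lower, of the 16 mitochondrial genes 1 was higher and 1 lower, and GARS and KARS were both higher. The median log2 change was 0.09 for the cytosolic set, 0.01 for the mitochondrial set and 0.00329 for all genes tested. At the paper's criteria 0 members were called, against 2.15% of all genes. Without si-SET replicate 1 the cytosolic median was 0.06, and without si-SET replicate 2 it was 0.13.

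AARS rose most on SET knockdown, from 4472 and 4518 counts to 6202 and 5841. It lies on chromosome 16 from 70251983 to 70289707 (minus strand). Its level was 263 ± 10.2 CPM in si-Ctr and 346 ± 5.43 in si-SET (SD, n = 2 each), 132% of control and a log2 change of 0.40 (SE 0.04, edgeR adjusted p = 1.69e-14). The knockdown libraries lay above both controls. AARS2 rose as well, from 720 and 780 counts to 928 and 917 (log2 change 0.28, SE 0.07, edgeR adjusted p = 0.00235), but its adjusted p was 0.157 without si-Ctr replicate 1 and 0.0602 with DESeq2's Wald test.

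KARS rose to 4582 and 4216 counts in si-SET (log2 change 0.31, SE 0.04, edgeR adjusted p = 3.34e-09), above both controls. EPRS reached 4087 and 3825 (0.23, SE 0.04, adjusted p = 1.16e-05). SARS, the seryl enzyme, had 2598 and 2531 counts in si-Ctr and 3245 and 2883 in si-SET, a log2 change of 0.24 (adjusted p = 2.82e-05). IARS, the isoleucyl enzyme of the complex, had 6468 and 6011 counts in si-Ctr and 7666 and 6851 in si-SET and rose by 0.20 on the log2 scale (adjusted p = 2.95e-05). For GARS, si-SET replicate 1 decided the call: the counts were 6485 and 5502, the log2 change was 0.18 (adjusted p = 0.000307), and without that library the value was 0.08 with an adjusted p of 0.202. FARSB (0.18, adjusted p = 0.0425) and TARS (0.10, adjusted p = 0.0436) were just past the threshold. Without si-SET replicate 1 their adjusted p was 0.579 and 0.313, without si-Ctr replicate 1 it was 0.139 and 0.121, and without si-Ctr replicate 2 it was 0.182 and 0.289.

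WARS fell on SET knockdown too, to 4378 and 3840 counts and 236 ± 15.6 CPM, which is 82.6% of control (log2 change −0.27, SE 0.04, edgeR adjusted p = 1.82e-07). QARS, the glutaminyl enzyme of the complex, has no mitochondrial partner gene, since mitochondria make their glutaminyl-tRNA through the amidotransferase QRSL1, GATB and GATC. QARS lies on chromosome 3 from 49095932 to 49105130 (minus strand) and had 3423 and 3351 counts in si-Ctr and 3066 and 3021 in si-SET, or 198 ± 3.29 and 175 ± 2.85 CPM (log2 change −0.17, SE 0.04, edgeR adjusted p = 0.00129). In si-ZBTB11 QARS had 3439 and 3507 counts and did not pass the test (0.05, adjusted p = 0.520). RARS, the arginyl enzyme, had 3547 and 3356 counts in si-Ctr and 3341 and 3107 in si-SET, a log2 change of −0.12 (adjusted p = 0.0334). Its adjusted p was 0.189 without si-Ctr replicate 1, 0.130 without si-Ctr replicate 2 and 0.192 without si-SET replicate 2. MARS2 had 283 and 266 counts in si-SET (−0.29, adjusted p = 0.0474), and without any 1 library its adjusted p was 0.0703 to 0.267. The Wald test of DESeq2 did not call FARSB, TARS, RARS and MARS2 either, with adjusted p-values of 0.256, 0.144, 0.135 and 0.269.

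The remaining 14 mitochondrial genes did not pass on SET knockdown, and their log2 changes ran from −0.12 for CARS2 and VARS2 to 0.22 for EARS2. EARS2, the glutamyl enzyme, had 433 and 463 counts in si-Ctr and 571 and 489 in si-SET, above both controls, with an adjusted p of 0.0708. LARS2 (627 and 505 counts) and TARS2 (877 and 687 counts) straddled their controls in CPM, with log2 changes of −0.07 and 0.04 (adjusted p = 0.606 and 0.763). The summed level of the mitochondrial set was 640 ± 15.7 CPM in si-SET, 101% of control, and that of the cytosolic set was 3922 ± 115 CPM, 107% of control.

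**Figure D2:**
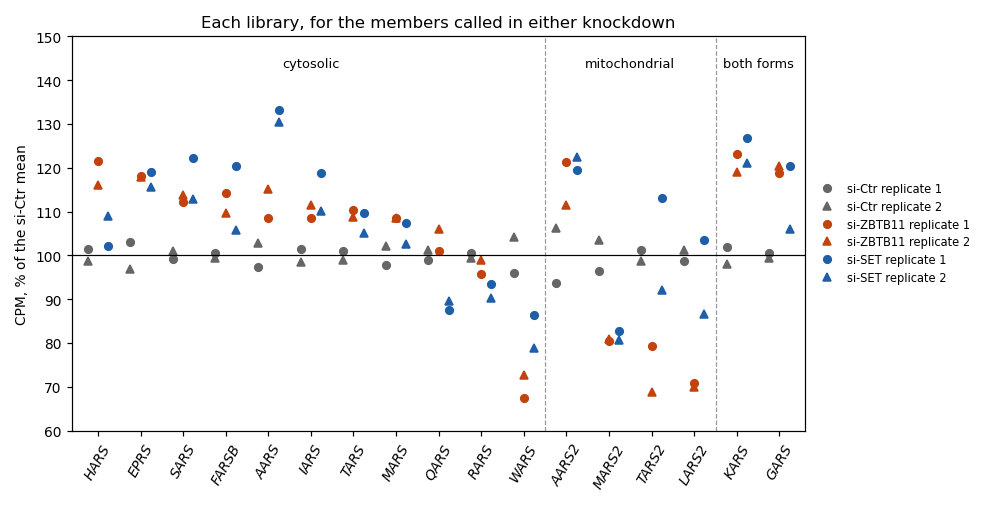
Normalized CPM of each library as percent of the si-Ctr mean, for members called in either knockdown; grey is si-Ctr, orange si-ZBTB11 and blue si-SET, circles are replicate 1 and triangles replicate 2. AARS in si-SET stands highest, near 132%, WARS and LARS2 in si-ZBTB11 stand lowest, near 70%, and the si-SET replicates of TARS2, LARS2 and GARS lie far apart.

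Side by side, 9 members rose in both comparisons (among them AARS, EPRS, IARS, SARS, TARS, GARS, KARS and AARS2), 2 fell in both (WARS and MARS2) and 0 were called in opposite directions. HARS, MARS, LARS2 and TARS2 passed against si-Ctr on ZBTB11 knockdown alone, and FARSB, QARS and RARS on SET knockdown alone. The other 18 passed in neither, 6 of them cytosolic (CARS, FARSA, LARS, NARS, VARS and YARS) and 12 mitochondrial (CARS2, EARS2, FARS2, HARS2, IARS2, NARS2, PARS2, RARS2, SARS2, VARS2, WARS2 and YARS2). The shared si-Ctr libraries enter all of these counts, so they are no measure of how alike the knockdowns are. Of all genes tested, 20.5% were called on ZBTB11 knockdown and 27.0% on SET knockdown. The share of all genes called in both was not computed, so these counts cannot be set against genes at large.

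Whether the effects differ was tested by comparing si-ZBTB11 with si-SET directly, in which the controls play no part. Of the 36 members, all tested among 13549 genes, 2 were higher and 4 were lower in si-ZBTB11 than in si-SET. This is 16.7% of the members, where 18.2% of all genes were called, 9.61% higher and 8.58% lower. The share called was thus near that of genes at large, although the members lay at a higher depth. The part of depth in this was not tested. At the paper's criteria 0 members and 1.36% of all genes were called. TARS2 was lower in si-ZBTB11 by −0.47 on the log2 scale (SE 0.09, edgeR adjusted p = 0.000226), and LARS2 by −0.44 (SE 0.10, adjusted p = 0.00105). The TARS2 difference was −0.32 (adjusted p = 0.0208) without si-SET replicate 1 and −0.61 without si-SET replicate 2. Without si-SET replicate 1, the LARS2 difference was −0.30 with an adjusted p of 0.0698. AARS, higher in both knockdowns than in si-Ctr, was lower in si-ZBTB11 than in si-SET by −0.24 (SE 0.04, adjusted p = 9.42e-05), and WARS, lower in both, was lower still in si-ZBTB11 by −0.24 (SE 0.05, adjusted p = 0.000517). QARS was higher in si-ZBTB11 by 0.22 (SE 0.05, adjusted p = 0.000832) and HARS, with 2244 and 2310 counts in si-SET, by 0.17 (SE 0.05, adjusted p = 0.0215). For HARS the adjusted p was 0.223 without si-SET replicate 1, 0.173 without si-ZBTB11 replicate 1 and 0.0902 with DESeq2. GARS, KARS, MARS and RARS did not differ detectably between the knockdowns, with differences of 0.07, −0.04, 0.04 and 0.07 and SEs of 0.04 to 0.05. FARSB (−0.02, SE 0.07) and MARS2 (−0.02, SE 0.12) did not either, at a lower precision.

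**Figure D3:**
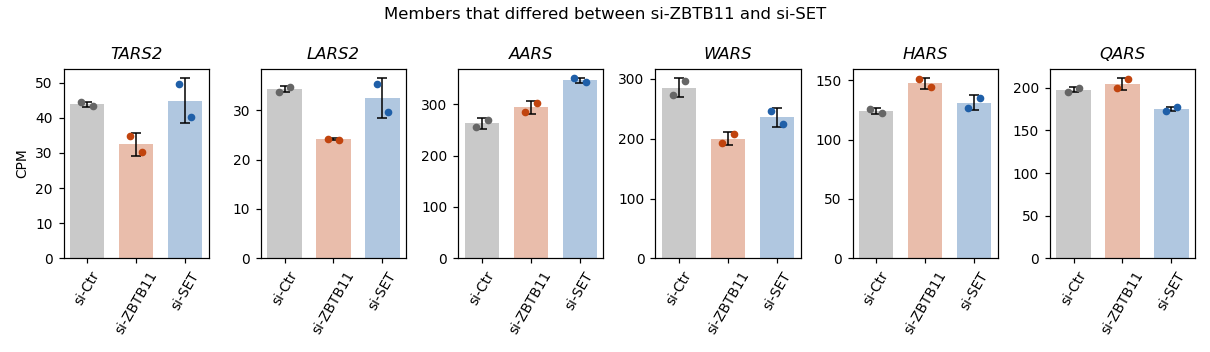
Normalized CPM of the 6 members that differed between si-ZBTB11 and si-SET; points are the 2 libraries of each group, bars their mean and black bars the SD (n = 2), on axes that start at 0. TARS2 and LARS2 are low in si-ZBTB11 alone, AARS rises from si-Ctr through si-ZBTB11 to si-SET, WARS is lowest in si-ZBTB11, HARS is highest in si-ZBTB11 and QARS is lowest in si-SET.

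The cytosolic and mitochondrial enzymes for the same amino acid could be set side by side in 17 pairs, in which FARSA and FARSB are both paired with FARS2, and EPRS with EARS2 and PARS2. The log2 change of the cytosolic gene was above that of its partner in 13 of the 17 pairs on ZBTB11 knockdown and in 14 of 17 on SET knockdown, as a description with no test. On ZBTB11 knockdown the widest gaps with the cytosolic gene above were 0.59 for LARS and LARS2, 0.56 for TARS and TARS2, 0.48 for EPRS and PARS2, and 0.43 for MARS and MARS2. WARS and WARS2 had the widest gap in the other direction, −0.58. RARS and RARS2, AARS and AARS2, and YARS and YARS2 were the other pairs in which the mitochondrial gene was above, at −0.15, −0.06 and −0.03. On SET knockdown MARS and MARS2 were farthest apart at 0.36, and the pairs in the other direction were RARS (−0.20), WARS (−0.17) and FARSA (−0.10).

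The calls were also counted by complex and by enzyme class. The share of all genes called was 20.5% on ZBTB11 knockdown and 27.0% on SET knockdown. Of the 8 members of the multisynthetase complex (among them EPRS, IARS, LARS, MARS, QARS, RARS and KARS), 5 were higher and 0 lower on ZBTB11 knockdown, and 4 were higher and 2 lower on SET knockdown. Of the 11 cytosolic genes outside it, 4 were higher and 1 lower in each comparison. The 17 class II enzymes, which share an antiparallel fold of the catalytic domain, had 8 higher and 1 lower on ZBTB11 knockdown and 8 higher and 0 lower on SET knockdown. The 18 class I enzymes, which are built on a Rossmann fold, had 2 higher and 3 lower, then 1 higher and 4 lower, which is 27.8% called in each comparison and near the share of all genes on SET knockdown. EPRS holds an enzyme of each class and was counted in neither. The summed level of class II was 2063 ± 13.5 CPM in si-Ctr, 2298 ± 9.78 in si-ZBTB11 and 2342 ± 81.1 in si-SET, and that of class I was 2568 ± 28.9, 2580 ± 26.9 and 2590 ± 83.8. The called class I genes that were lower include WARS, the member with the largest change in size.

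Set against the promoter windows, 4 of the 7 members with TGATGNAA (AARS, IARS, MARS and TARS) were higher on ZBTB11 knockdown and 3 (AARS, IARS and TARS) on SET knockdown, with 0 lower in either. CARS, NARS and YARS2 carry the element and did not pass in either comparison, and KARS, GARS, EPRS, SARS and HARS, which have none in the window, were higher on ZBTB11 knockdown. Among the 23 members without it, 5 were higher and 4 lower in each comparison. Of all genes tested, 9.94% were called higher and 10.5% lower on ZBTB11 knockdown, and 13.1% and 13.9% on SET knockdown. Calls among other genes that carry these motifs were not counted. Of the 14 members with CCGGAAG, 4 were higher and 3 lower on ZBTB11 knockdown, and of the 16 without it 5 were higher and 1 was lower. The counts on SET knockdown were much the same, with 3 higher and 3 lower among the 14, and 5 higher and 1 lower among the 16. TARS2, MARS2 and WARS, which fell, and KARS, GARS, HARS and SARS, which rose, all hold it, while LARS2 has no match to any of the 3 motifs in its window. Binding of ZBTB11 or ATF4 was not measured in these libraries. The paper reports ChIP-seq of ZBTB11 in H1299 cells, and those data were not used here.

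The genes of the ATF4 response that code for no synthetase were taken from a list of 25, all tested. On ZBTB11 knockdown 11 were higher and 0 lower, where 9.94% of all genes were called higher and 10.5% lower, with a median log2 change of 0.15, and DESeq2 called 7. ATF3, a factor of the stress response, rose by 0.58, SLC7A11, the cystine transporter, by 0.56, and NUPR1, a stress-induced chromatin protein, by 0.48. On SET knockdown 9 were higher and 4 lower, where 13.1% of all genes were called higher and 13.9% lower, with a median of 0.10, and DESeq2 called 8: ATF3 rose by 0.74 and NUPR1 by 0.56, while VLDLR, a lipoprotein receptor, fell by 0.50 on the log2 scale. ATF4 mRNA itself had 4010 and 4045 counts in si-Ctr, 4497 and 4576 in si-ZBTB11 and 5863 and 5227 in si-SET. Its log2 change was 0.18 (SE 0.04, edgeR adjusted p = 0.000522) on ZBTB11 knockdown and 0.44 (SE 0.04, adjusted p = 1.00e-15) on SET knockdown, and in the direct comparison it was lower in si-ZBTB11 by −0.26 (adjusted p = 7.27e-05). DDIT3, the factor also called CHOP, rose on ZBTB11 knockdown (0.36, SE 0.07, adjusted p = 9.21e-05) and did not pass on SET knockdown (0.05, adjusted p = 0.684). ASNS, asparagine synthetase and a standard ATF4 target, had 91 and 87 counts in si-Ctr, 109 and 111 in si-ZBTB11 and 134 and 69 in si-SET, and did not pass in either comparison (adjusted p = 0.267 and 0.620). Between the knockdowns 7 of the 25 were higher and 3 lower in si-ZBTB11, where 9.61% of all genes were called higher and 8.58% lower, and DESeq2 called 8. The largest differences were those of SLC7A11 (0.57), CHAC1, which degrades glutathione (0.52), and DDIT4, an inhibitor of mTORC1 (0.50). The Wald test of DESeq2 did not call ATF3 and NUPR1 on ZBTB11 knockdown (adjusted p = 0.106 and 0.244) or NUPR1 on SET knockdown (0.117).

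For the lists that follow, 20.5% of all genes tested were called on ZBTB11 knockdown, 27.0% on SET knockdown and 18.2% between the knockdowns. Of the 3 scaffold genes of the multisynthetase complex, AIMP1 rose on ZBTB11 knockdown, from 867 and 717 counts to 926 and 953 (log2 change 0.26, SE 0.07, edgeR adjusted p = 0.00447). With DESeq2 the adjusted p of AIMP1 was 0.106. On SET knockdown 0 of the 3 passed (0 at an unadjusted p under 0.05 and 0 with DESeq2), where AIMP1 had 0.14 (adjusted p = 0.165). Of the 4 genes that complete charging in mitochondria, the amidotransferase subunits QRSL1, GATB and GATC and the formyltransferase MTFMT, 0 passed on ZBTB11 knockdown (0 at an unadjusted p under 0.05 and 0 with DESeq2). GATB rose on SET knockdown from 286 and 310 counts to 381 and 379 (0.33, SE 0.11, adjusted p = 0.0157) and was lower in si-ZBTB11 than in si-SET by −0.40 (adjusted p = 0.0113), and with DESeq2 the adjusted p was 0.170 and 0.103.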

How the data were processed

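Total RNA of transfected H1299 cells was sequenced in 6 libraries, grouped by the sample titles. Per the paper and the submitters' processing notes, the authors aligned paired-end reads of NEBNext Ultra libraries to hg38 with HISAT2 2.0.5, counted them per gene with featureCounts 1.5.0-p3 and deposited raw counts for 19934 gene symbols. The annotation, the strand setting and the treatment of reads with several matches are not given in the sources used here, so members that overlap or share sequence with other genes are uncertain.

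Each pair of groups was fitted alone in edgeR 4.0.16 (R 4.3.3) with TMM normalization, the default filterByExpr filter and the two-sided quasi-likelihood test, with Benjamini-Hochberg adjustment over all genes tested. A gene was called at an adjusted p under 0.05. Standard errors came from the fold change and the F statistic. CPM values are TMM-normalized over all 6 libraries. The script was tested on simulated data. Alternatives were DESeq2 1.42.0, other scalings, low-count filters and call rules, all 6 libraries in one fit, a replicate block and each library left out. With 2 libraries per group an exact permutation test cannot reach 0.05. The edgeR p-values and standard errors rest on a dispersion estimated partly from all genes. They are therefore no direct measure of the spread of 1 gene between these cultures. Replicates differed by more than sampling noise (chi-square per degree of freedom 2.34 to 2.71). The floor of 3 counts covers counting error only.

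Positions, lengths and overlaps came from GENCODE version 44, and promoters from RefSeq (GRCh38.p14). The values of 1 member are not reported here, although it stays in the counts, sums and medians. The other members are accounted for, with counts for the up to 8 largest changes called per comparison. Of each other list, up to 3 called genes are named, and ATF4, DDIT3, ASNS, AIMP1 on SET knockdown and the counts of further members were added after their values were seen. The rule for the members names genes and uses no measured value, but the family and the lists were chosen with earlier results of these data known.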

Additional observations from a re-analysis of the deposited data

Results flagged for a closer look

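The effects of the knockdowns differed for 6 members by the direct comparison of si-ZBTB11 with si-SET, with edgeR's quasi-likelihood test and adjusted p-values of 0.0215 or less. This is 16.7% of the members, where 18.2% of all genes were called. The log2 difference, si-ZBTB11 minus si-SET, was −0.47 for TARS2, −0.44 for LARS2, −0.24 for AARS, −0.24 for WARS, 0.17 for HARS and 0.22 for QARS. HARS was not called with DESeq2, without si-SET replicate 1 or without si-ZBTB11 replicate 1, and LARS2 was not called without si-SET replicate 1. With 2 libraries in each group, single libraries could not be tested for distance from the rest.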

How the results depend on the processing

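No called member changed direction under any alternative run. Of the 15 members called on ZBTB11 knockdown, EPRS, HARS, WARS, GARS, KARS, LARS2 and TARS2 passed in all 11 alternatives that kept the call rule, and of the 14 on SET knockdown so did AARS, EPRS, IARS, QARS, SARS, WARS and KARS. The number higher on ZBTB11 knockdown was 7 to 9 with single libraries left out, with 7 without si-Ctr replicate 1. The number lower on SET knockdown was 2 with DESeq2 and 2 to 3 with single libraries left out. Between the knockdowns, the number higher was 1 with DESeq2 and 1 to 2 with single libraries left out. The call rule of an absolute log2 fold change over 1 gave 0 in all 3 comparisons and both directions. The cytosolic median on ZBTB11 knockdown was 0.0980 with library size only. With single libraries left out it was 0.0611 to 0.133 on SET knockdown and −0.0547 to 0.0273 between the knockdowns. With the replicate block, the counts of members higher and lower were 12 and 4 on ZBTB11 knockdown, 13 and 4 on SET knockdown and 2 and 4 between the knockdowns, and no call was lost. Deviations of same-numbered libraries correlated at 0.0114 to 0.0258, so pairing by number was not detected, which does not exclude it. Over all genes, the block raised the calls of edgeR to 3155 on ZBTB11 knockdown, 4103 on SET knockdown and 2996 between the knockdowns. DESeq2 called 1296 genes on ZBTB11 knockdown where edgeR without the block called 2771, and 1802 on SET knockdown where edgeR called 3667. Between the knockdowns it called 1232 where edgeR called 2465. On SET knockdown the mitochondrial median ran from −0.02 to 0.03 with single libraries left out, so it has no stable sign. Depth limits the mitochondrial set, where standard errors reached 0.20 for SARS2.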

Other observations

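Among 11 factors of mitochondrial translation, TACO1, the activator of COX1 translation, fell from 691 and 718 counts to 274 and 297 on ZBTB11 knockdown, a log2 change of −1.29 (SE 0.10, edgeR adjusted p = 4.98e-22), and MTRF1, a release factor of mitochondria, rose by 0.45 (adjusted p = 0.0138). The 11 factors thus held 1 higher and 1 lower on ZBTB11 knockdown, near the 20.5% of all genes called. On SET knockdown 0 of the 11 passed the test of edgeR (1 at an unadjusted p under 0.05 and 0 with DESeq2), where 27.0% of all genes were called. Between the knockdowns MRRF, the ribosome recycling factor of mitochondria, was lower in si-ZBTB11 by −0.38. Of 12 genes of transfer RNA maturation, GTPBP3 and CDK5RAP1, which modify mitochondrial transfer RNAs, fell on ZBTB11 knockdown with log2 changes of −0.89 (SE 0.10, adjusted p = 6.59e-13) and −0.37 (SE 0.06, adjusted p = 2.54e-06). HSD17B10, a subunit of mitochondrial RNase P, rose by 0.25 (adjusted p = 0.000212). The 12 genes thus held 1 higher and 2 lower, also near the share of all genes called. GTPBP3 had 610 and 587 counts in si-Ctr, 355 and 287 in si-ZBTB11 and 555 and 575 in si-SET. On SET knockdown KIAA0391, the nuclease subunit of mitochondrial RNase P, and XPOT, the exporter of transfer RNAs, fell with −0.45 and −0.15 (adjusted p = 0.0112 and 0.00157). Of 6 synthetase-like and proofreading genes, SEPSECS, the last enzyme of selenocysteinyl-tRNA synthesis, rose on SET knockdown by 0.23 (adjusted p = 0.0383), and 0 passed on ZBTB11 knockdown (0 at an unadjusted p under 0.05 and 0 with DESeq2). The Wald test of DESeq2 did not call MTRF1 (adjusted p = 0.177), KIAA0391 (0.148) and SEPSECS (0.231).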
